A study of Mus musculus with 18 samples.

Results

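The genes that encode the proteins of the cytosolic ribosome were followed through 18 RNA sequencing libraries of mouse embryonic stem (ES) cells. Members were the protein-coding genes of the GRCm38 annotation whose symbol is Rpl or Rps followed by a number, with or without a letter, together with Rplp0, Rplp1, Rplp2 and Rpsa. S6 kinase genes and pseudogenes were left out, and a mean of at least 5 counts per 1000000 reads on genes (CPM) over the 18 libraries was required. Of 80 genes of this form, 77 met the rule, among 53801 genes in the count table and 18469 genes that were tested. They comprised 46 genes of the large (60S) and 31 of the small (40S) subunit, lay on 19 chromosomes, and all 77 passed the filter on low counts. The 3 genes below the limit were Rpl23a (2.79 CPM), the muscle paralogue Rpl3l (1.28 CPM) and Rpl24 (0.908 CPM). The members nearest to the limit were Rps27 (5.91 CPM), Rpl35 (6.72 CPM) and Rpl17 (10.7 CPM). As the markers given for the set, Rpl3, Rps2 and Rplp0 were all members, with means of 54.2, 368 and 683 CPM.

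The 6 groups held 3 libraries each and covered ES cells in 2i+LIF on gelatin (ESC) and cells kept for 24 h (T24) or 48 h (T48) in N2B27, a medium without the naive factors, in which naive pluripotency is left. WT cells were the parental E14 line. iEZR_CA cells carry a doxycycline-inducible, constitutively active form of ezrin, which ties the plasma membrane to the actin cortex, and received doxycycline from about 16 h before exit. No doxycycline is stated for WT cells, so the transgene, the drug and the derivation of the line cannot be told apart in any comparison between the lines. Whether iEZR_CA is a single clone is not stated in the sources used here. The labels call the libraries biological replicates without naming separate cultures, so p-values measure the spread between these libraries.

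Each ribosome needs most of its structural proteins in equal amounts, and its proteins are assembled with ribosomal RNA in the nucleolus. In mammals their mRNAs are among the most abundant of the cell and typically begin with a 5′ terminal oligopyrimidine (TOP) tract, a C followed by a run of C and T, through which mTOR signalling and the RNA-binding protein Larp1 control their translation. Nearly every one of these genes has left processed pseudogenes in the mouse genome, and reads that match a gene and its copies equally well are often left unassigned by gene counting.

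The start sites below are shown as examples of C and T runs near the start of members, chosen among those with a run. Values of these members, except Rpl7a, are described further on. RefSeq promoters (GRCm38.p6) matched 58 of the 77 members. Each line gives the 30 bases around the annotated start, 15 on each side, on the strand of the gene. Capitals mark the longest run that begins with C and goes on with at least 4 C or T. The run spans the annotated start in Rpl7a, Rpl15 and Rps6, lies after it in Rps2 and ends before it in Rpl4, Rpl10l and Rpl39l. Rplp0 and Rps3, both highly counted, had no such run in this window.
Rpl4, chr9:64173372-64173401, plus strand: ttCCTTTTCCTgtgggagcagccgggtaga
Rpl7a, chr2:26910792-26910821, plus strand: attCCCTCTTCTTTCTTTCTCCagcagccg
Rpl15, chr14:18270972-18271001, minus strand: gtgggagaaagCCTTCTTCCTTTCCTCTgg
Rps6, chr4:86857353-86857382, minus strand: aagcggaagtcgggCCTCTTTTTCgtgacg
Rps2, chr17:24720048-24720077, plus strand: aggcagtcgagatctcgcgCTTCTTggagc
Rpl10l, chr12:66284387-66284416, minus strand: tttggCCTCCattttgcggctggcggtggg
Rpl39l, chr16:10170213-10170242, plus strand: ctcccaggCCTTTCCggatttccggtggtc
A run of this kind was present in 63.8% of the 58 member promoters and in 37.0% of 16449 promoters of other protein-coding genes. Runs of at least 8 bases occurred in 39.7% of member promoters against 9.20%. Exactly at the annotated start, a C followed by 4 C or T stood in 20.7% against 2.13%, including runs that began before the start. Over the whole 300 bases of each promoter, on both strands, the ETS core CCGGAAG occurred in 41.4% of members against 12.2% of other genes, and the YY1 core ATGGCGG in 15.5% against 5.54%. The SP1 box GGGCGG occurred in 60.3% against 48.0%, and TATAAA in 8.62% against 12.9%. These are matches of letters in a window.

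The coding sequences of the paralogues are shown for a different reason, namely that their differences decide whether a read can be assigned to the X-linked gene or to its autosomal relative. GENCODE transcripts (release M21) gave the stretches of 30 bases, with positions counted from the A of the start codon. Each is the stretch without gaps that has the most differences in its pair, 8 for Rpl10 and 9 for Rpl39. The rest of the coding sequence is therefore more alike than the bases shown. Capitals mark the bases that differ within a pair.
Rpl10, coding bases 118 to 147: aaAgcAaaAgtTgatgaAttCccactTtgT
Rpl10l, coding bases 118 to 147: aaGgcGaaGgtGgatgaGttTccactCtgC
Rpl39, coding bases 116 to 145: cTaagAgAagacaCtggagGAgaacGaaGC
Rpl39l, coding bases 116 to 145: cCaagCgGagacaTtggagACgaacCaaAT
Over the whole coding sequence Rpl10 and Rpl10l were 84.7% identical, with no identical run longer than 23 bases. Rpl39 and Rpl39l were 85.0% identical, with a longest run of 38 bases, and Rps27 and Rps27l 76.2%, with a longest run of 11 bases.

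Depth ran from 10940752 to 33276622 reads on genes per library, the normalization factors from 0.975 to 1.03, and the common biological coefficient of variation was 2.98%, so that small differences could pass the test. Ezr, the gene of the transgene, had 552 to 576 CPM in WT ESCs and 1173 to 1209 CPM in iEZR_CA ESCs. At T24 it had 359 to 377 CPM in WT and 966 to 1016 CPM in iEZR_CA cells. By T48 the lines were closer, with 462 to 497 CPM in WT and 768 to 783 CPM in iEZR_CA cells. Summed over 7 genes, ES cell markers stood at 6520 to 6709 CPM in WT ESCs at 1086 to 1166 CPM in WT T48 and at 1744 to 1881 CPM in iEZR_CA T48 cells. The 4 early post-implantation markers summed to 164 to 169 CPM in WT ESCs and 3485 to 3776 CPM in WT T48, against 1757 to 1857 CPM in iEZR_CA T48 cells. Markers of trophoblast (at most 18.8 CPM), primitive endoderm (at most 9.60 CPM) and 2-cell-like cells (at most 4.798 CPM) were low in all groups. A list of 4 fibroblast genes summed to 16.6 to 18.8 CPM in WT T48 and to at most 3.12 CPM elsewhere. Reads rejected for low alignment quality made up 0.519% to 0.612% of WT and 0.889% to 1.02% of iEZR_CA libraries, and the part of this difference in the comparisons of the lines was not tested.

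The 77 members held about the same small share of the gene reads in every library. In WT ESCs the share was 2.07%, 2.14% and 2.27%, in WT T24 cells 1.99%, 1.99% and 1.96%, and in WT T48 cells 2.25%, 2.22% and 2.20%. In iEZR_CA cells it was 2.12%, 2.15% and 2.12% in ESCs, 2.01%, 1.99% and 2.05% at T24, and 2.13%, 2.17% and 2.17% at T48. In both lines all T24 libraries lay below all ESC and all T48 libraries. The means were 2.16% ± 0.104, 1.98% ± 0.0151 and 2.22% ± 0.025 (SD, n = 3) in WT and 2.13% ± 0.0203, 2.02% ± 0.029 and 2.16% ± 0.0217 in iEZR_CA cells. WT ESC replicate 3 had the highest share of all and stood apart from the other WT ESC libraries. In bulk RNA, less RNA per cell and fewer cells of a kind cannot be told apart.

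Relative to spike-in reads the order was different. The members gave 1.98 ± 0.00558 reads per spike-in read in WT ESCs, 2.01 ± 0.0556 at T24 and 2.39 ± 0.105 at T48, and 2.04 ± 0.0618, 2.06 ± 0.138 and 2.4 ± 0.52 in iEZR_CA cells (SD, n = 3). On this scale ESC and T24 overlapped in both lines, and the iEZR_CA T48 libraries ranged from 1.83 to 2.84. How much spike-in was added per cell is not stated in the sources used here.

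**Figure D1:**
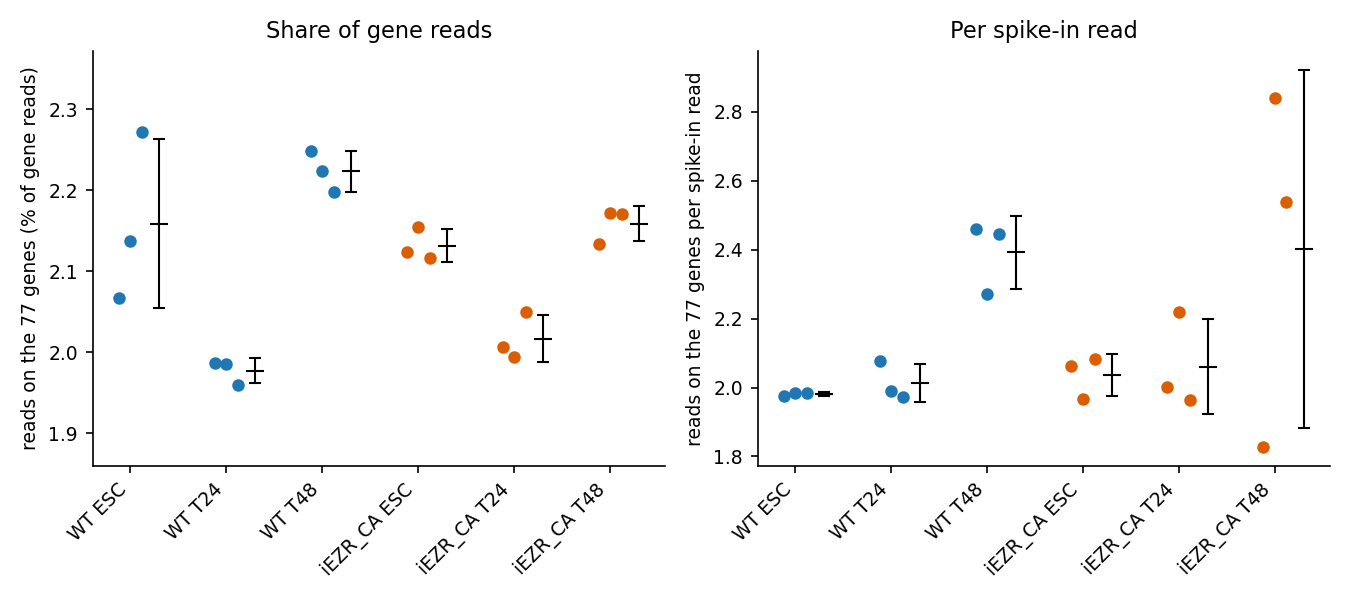
Reads on the 77 ribosomal protein genes in each library as a percent of the reads on genes (left, axis not from 0) and per spike-in read (right). Points are libraries, with WT in blue and iEZR_CA in orange, and the bar beside them is the mean with its SD (n = 3). As a share of gene reads all T24 libraries lie below the ESC and T48 libraries of their line, whereas per spike-in read ESC and T24 overlap.

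Between ESC and T24 most members that differed were lower, in both lines. In WT cells 39 members were lower and 5 higher (edgeR's quasi-likelihood test, Benjamini-Hochberg adjusted p under 0.05), against a background of 33.6% lower and 31.8% higher among all genes tested. In iEZR_CA cells 54 were lower and 1, Rpl15, was higher, against 28.9% and 27.1%. The value of Rpl15 was 0.08, and with the reads of its named pseudogenes added it was 0.07 and lost the call. The steps were small, with a median log2 fold change of -0.09 in WT and -0.15 in iEZR_CA cells, where all genes tested had medians of -0.01 and -0.01. With a size over 0.25 on the log2 scale required as well, 3 members were lower and 2 higher in WT. In iEZR_CA cells 11 were lower. Of the 18469 genes tested, 4878 were lower and 4576 higher over this size in WT, and 3685 and 3812 in iEZR_CA cells. Of the 77 members 36 were lower at T24 in both lines and none was higher in both, whereas 21.9% of all genes were lower and 19.9% higher in both.

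The sign of the members' median at T24 depended on the scale. Scaled to spike-in reads, which moved the median of all genes to 0.13 in WT and 0.14 in iEZR_CA cells, the members had medians of 0.05 and 0.00, with 4 higher and none lower in WT (6 higher and none lower at an unadjusted p under 0.05) and, adjusted or not, 2 lower and none higher in iEZR_CA cells. Of all genes on that scale 28.77% were higher and 17.97% lower in WT, and 24.59% and 11.11% in iEZR_CA cells. Without spike-in scaling and without WT ESC replicate 3, the members' WT median was -0.05.

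Rps2, at the mRNA entry side of the small subunit, had the largest fall among WT members. It was counted at 384, 407 and 418 CPM in WT ESCs and at 322, 324 and 314 CPM at T24, without overlap, a log2 fold change of -0.33 ± 0.03 (SE, adjusted p = 1.91e-14). Those of iEZR_CA cells went from 436, 420 and 418 to 360, 335 and 355 CPM (-0.28 ± 0.03). Rpl37 (-0.28 ± 0.04) and Rps15a (-0.27 ± 0.03) were the next in WT. Rplp0, the base of the stalk that recruits elongation factors, went from 613, 647 and 675 CPM to 587, 577 and 571 CPM in WT (-0.16 ± 0.03) and from 741, 756 and 736 CPM to 617, 647 and 617 CPM in iEZR_CA cells (-0.25 ± 0.03). The groups did not overlap in either line. The largest fall in iEZR_CA cells outside the paralogues was that of Rps29, a small zinc-binding protein of the 40S head, from 34.4, 34.5 and 32.2 to 21.4, 24.5 and 25.8 CPM (-0.49 ± 0.06).

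The WT members that went up at T24 included Rpl10, which joins the 60S subunit late in its assembly, from 40.9, 39.3 and 42.4 to 51.3, 51.4 and 49.6 CPM (0.32 ± 0.05, adjusted p = 1.37e-08). Rpl34 went from 22.4, 20.6 and 23.2 to 27.7, 25.9 and 29.1 CPM (0.32 ± 0.06). Neither group pair overlapped. Rpl9 (0.22 ± 0.06), Rpl27 (0.20 ± 0.04) and Rps12 (0.14 ± 0.06) also passed the test. When reads on named pseudogenes were added, the values of Rpl34 and Rps12 were 0.03 and 0.00 and lost the call, and that of Rpl9 turned to -0.12.

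From T24 to T48 most members that differed were higher. In WT cells 51 were higher and 7 lower, against 32.8% and 32.9% of all genes, and in iEZR_CA cells 46 were higher and none lower, against 29.6% and 30%. For the count of none, edgeR also found none at an unadjusted p under 0.05, and DESeq2 none on either measure. The medians were 0.16 and 0.12, beside 0.00 and 0.01 for all genes. On the spike-in scale, where all genes had medians of 0.13 and 0.10, they were 0.29 and 0.23, with fewer calls, namely 35 higher and 2 lower in WT and 15 higher in iEZR_CA cells. Of all genes on that scale 29.5% were higher and 18.2% lower in WT, and 22.3% and 15.2% in iEZR_CA cells. Without spike-in scaling 36 members rose in both lines and none fell in both, against 18.9% and 20.2% of all genes. Because the T24 libraries enter both steps, a low T24 value lowers the first and raises the second.

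Rpl29, of the large subunit, had the largest rise, from 18.2, 16.5 and 15.2 to 26.7, 25.4 and 25 CPM in WT (0.61 ± 0.07, adjusted p = 1.29e-11) and from 16.3, 15.8 and 19.1 to 25.6, 26.7 and 24.5 CPM in iEZR_CA cells (0.59 ± 0.07). No T48 library overlapped a T24 library of its line. Rpl38, known from its role in patterning of the axial skeleton, rose in WT from 44.1, 46.2 and 37.9 to 62.4, 65.0 and 57.3 CPM (0.50 ± 0.05). The iEZR_CA values were 47.9, 48.2 and 45.7 CPM at T24 and 52.4, 51.3 and 52.4 CPM at T48 (0.14 ± 0.05), and this smaller value lost the call with pseudogene reads added (0.06). Other rises included Rps13 (0.44 ± 0.06) and Rplp0 (0.41 ± 0.03) in WT, and Rps12 (0.42 ± 0.05), Rpl34 (0.41 ± 0.06), Rpl27 (0.35 ± 0.04) and Rpl13a (0.34 ± 0.05) in iEZR_CA cells. Rps2 rose in WT (0.17 ± 0.03) and had a value of -0.00 ± 0.03 in iEZR_CA cells (adjusted p = 0.917). The WT members that fell included Rpl10l, Rpl39l, Rpl30 (-0.26 ± 0.08), Rpl3 (-0.19 ± 0.05), Rps20 (-0.12 ± 0.03), Rps15a (-0.08 ± 0.03) and Rpl15 (-0.08 ± 0.03). With pseudogene reads added Rpl3 turned to 0.19 and Rpl15 lost the call (-0.05).

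**Figure D2:**
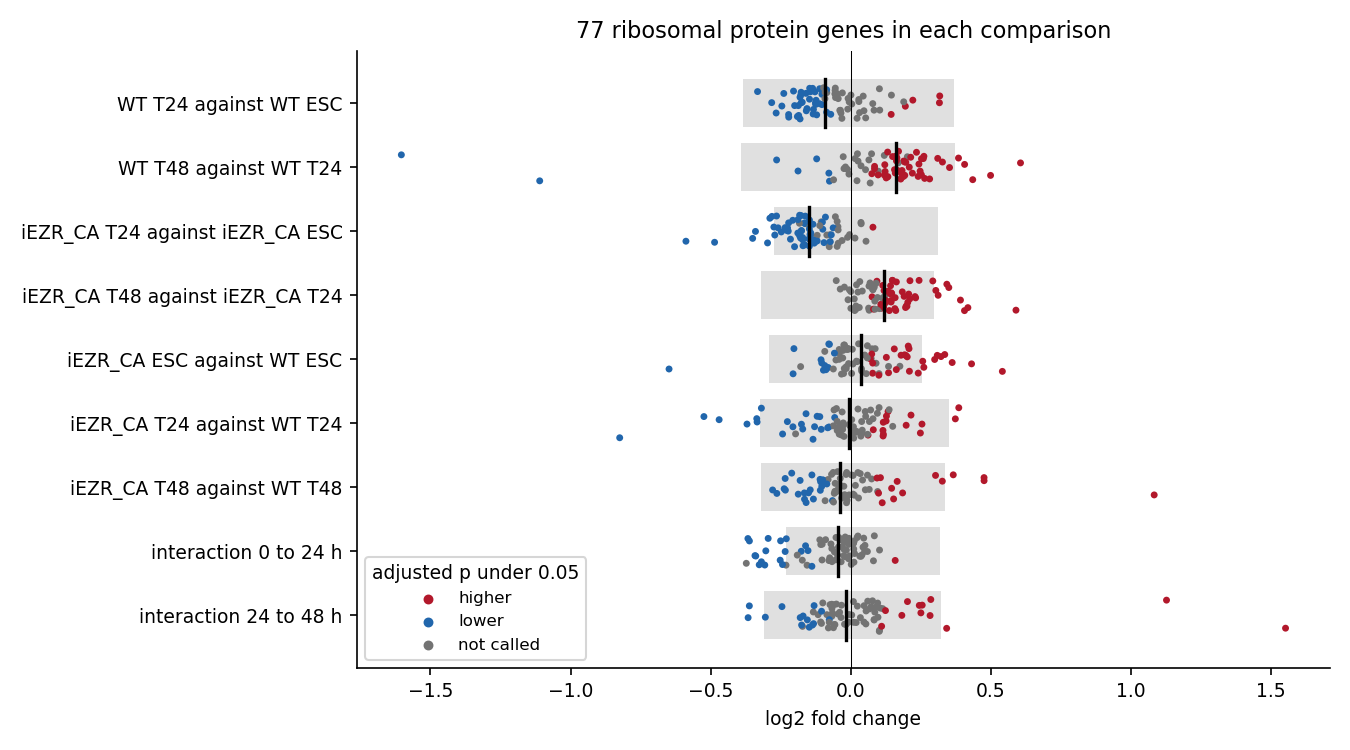
Log2 fold changes of the 77 genes in the 9 comparisons, scaled by TMM. Each point is a gene, red where higher and blue where lower at an adjusted p under 0.05, the black line is the median of the 77 genes, and the grey bar spans the middle quartiles of all genes tested. The medians lie at -0.09 and -0.15 for ESC to T24 and at 0.16 and 0.12 for T24 to T48, and on the spike-in scale, which is not drawn, those for T24 move to 0.05 and 0.00.

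Among themselves the members varied little. The range between the highest and the lowest of the 6 group means had a median of 0.28 on the log2 scale over the members, against 0.75 over 11259 other tested genes with at least 5 CPM. It was under 0.5 for 68 of the 77 members (88.3%) and for 30.2% of those other genes, and over 1 for only 2 members, Rpl10l (1.83) and Rpl39l (1.07). The median SD between replicates was 0.05 for members and 0.07 for the other genes. The next widest ranges were those of Rpl29 (0.73), Rpl13a (0.70) and Rps29 (0.68).

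**Figure D3:**
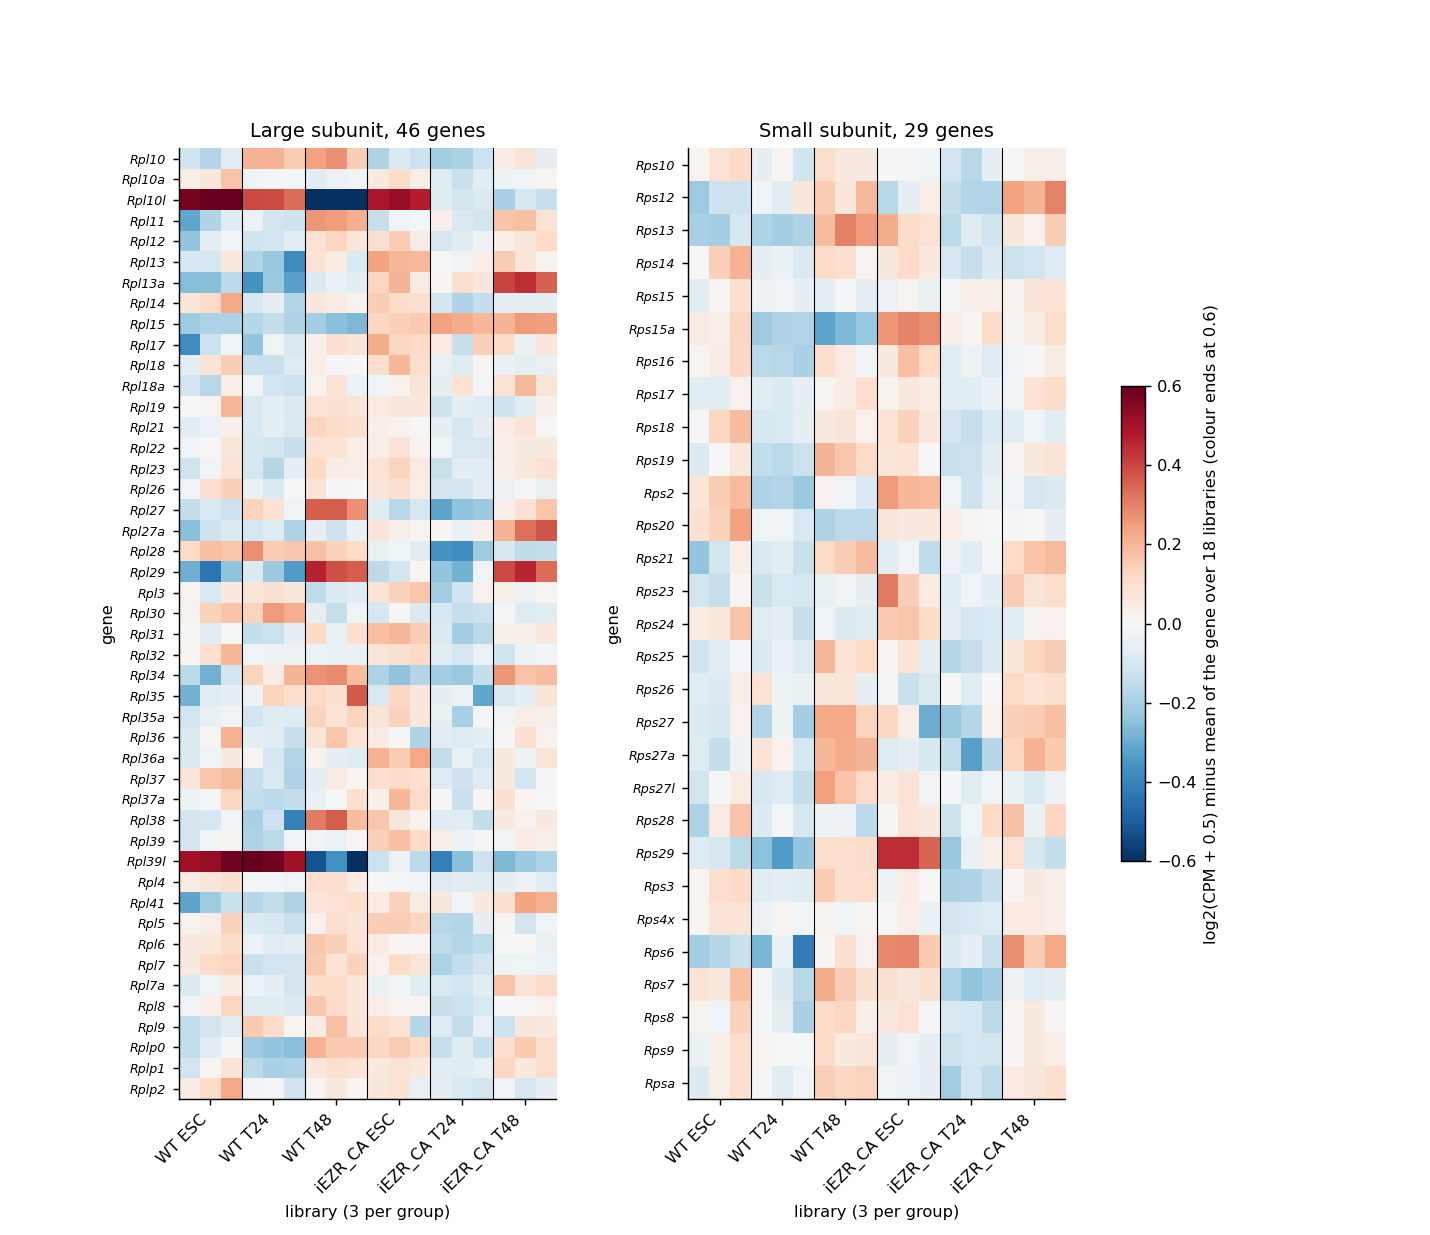
Level of 75 of the 77 genes in each of the 18 libraries, as log2(CPM + 0.5) minus the mean of the gene, for the large (left) and small (right) subunit. Red is above and blue below the mean of the gene, and colours end at 0.6. The T24 columns are bluest in both lines for most genes on this TMM scale, whereas the T24 medians are 0.05 and 0.00 after spike-in scaling, and Rpl10l and Rpl39l are lowest in WT T48.

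The paralogues Rpl10l and Rpl39l went apart from the other members. Rpl10l is an autosomal retrogene of the X-linked Rpl10 and is best known from male germ cells, as is Rpl39l, the relative of Rpl39. Rpl10l (chr12:66283379-66284401, minus strand) was counted at 240, 243 and 249 CPM in WT ESCs, 212, 212 and 204 CPM at T24 and 71.1, 65.9 and 68.8 CPM at T48. The iEZR_CA values were 226, 232 and 224, then 153, 150 and 152, then 141, 151 and 147 CPM. All 3 WT groups were separate, whereas iEZR_CA T24 and T48 overlapped. In WT the step to T24 was -0.22 ± 0.03 and the step to T48 was -1.60 ± 0.03 (adjusted p = 1.47e-49). In iEZR_CA cells the first step was the larger, at -0.59 ± 0.03, and the second was -0.05 ± 0.03 (adjusted p = 0.149). The steps differed between the lines by -0.37 ± 0.04 over the first 24 h and by 1.55 ± 0.05 over the next (adjusted p = 5.09e-40). Rpl10l of iEZR_CA cells was below WT at T24 (-0.47 ± 0.03) and above at T48 (1.08 ± 0.03).

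Rpl39l (chr16:10170226-10174911, plus strand) stood at 64.8, 65.9 and 68.6 CPM in WT ESCs, 69.4, 68.3 and 64.9 CPM at T24 and 31.5, 35.3 and 29.2 CPM at T48. The iEZR_CA values were 41.6, 44.4 and 40.7, then 34.2, 38.2 and 41.8, then 37.7, 38.9 and 40.0 CPM. WT ESC and T24 overlapped and only T48 was apart, while iEZR_CA T24 overlapped both other iEZR_CA groups and all iEZR_CA libraries lay below WT ESC and T24. The WT step to T48 was -1.11 ± 0.05 and that of iEZR_CA cells 0.02 ± 0.05 (adjusted p = 0.797), a difference of 1.13 ± 0.08 (adjusted p = 5.46e-19). The lines differed by -0.65 ± 0.05 in ESCs, -0.82 ± 0.05 at T24 and 0.30 ± 0.06 at T48. None of the 50-base windows of its coding sequence occurred in another gene, and 12.5% of those of Rpl10l did.

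Rpl10 and Rps27l did not share this course. Rpl10 stood at 51.3, 51.4 and 49.6 CPM at WT T24 and at 52.7, 53.9 and 49.4 CPM at T48, overlapping (0.02 ± 0.05, adjusted p = 0.658). Rpl10 of iEZR_CA cells went from 38.5, 38.9 and 40.6 to 45.8, 47.1 and 43.0 CPM (0.21 ± 0.05). All windows of Rpl10 were shared with other genes. Per length, Rpl10l had a mean of 171 RPKM (CPM divided by the length of the merged exons in kilobases) and Rpl10 21.8 RPKM. Rps27l, a paralogue of Rps27 known as a p53 target, moved the other way in WT, from 179, 180 and 172 CPM at T24 to 226, 214 and 206 CPM at T48 (0.28 ± 0.03), without overlap. Its iEZR_CA values went from 190, 182 and 188 to 185, 179 and 186 CPM (-0.02 ± 0.03), and the steps differed by -0.30 ± 0.05. Rps27 itself, at 5.03 to 5.73 CPM in WT T24 and 6.48 to 6.98 CPM in WT T48, was too low for a comparable precision (0.35 ± 0.12).

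**Figure D4:**
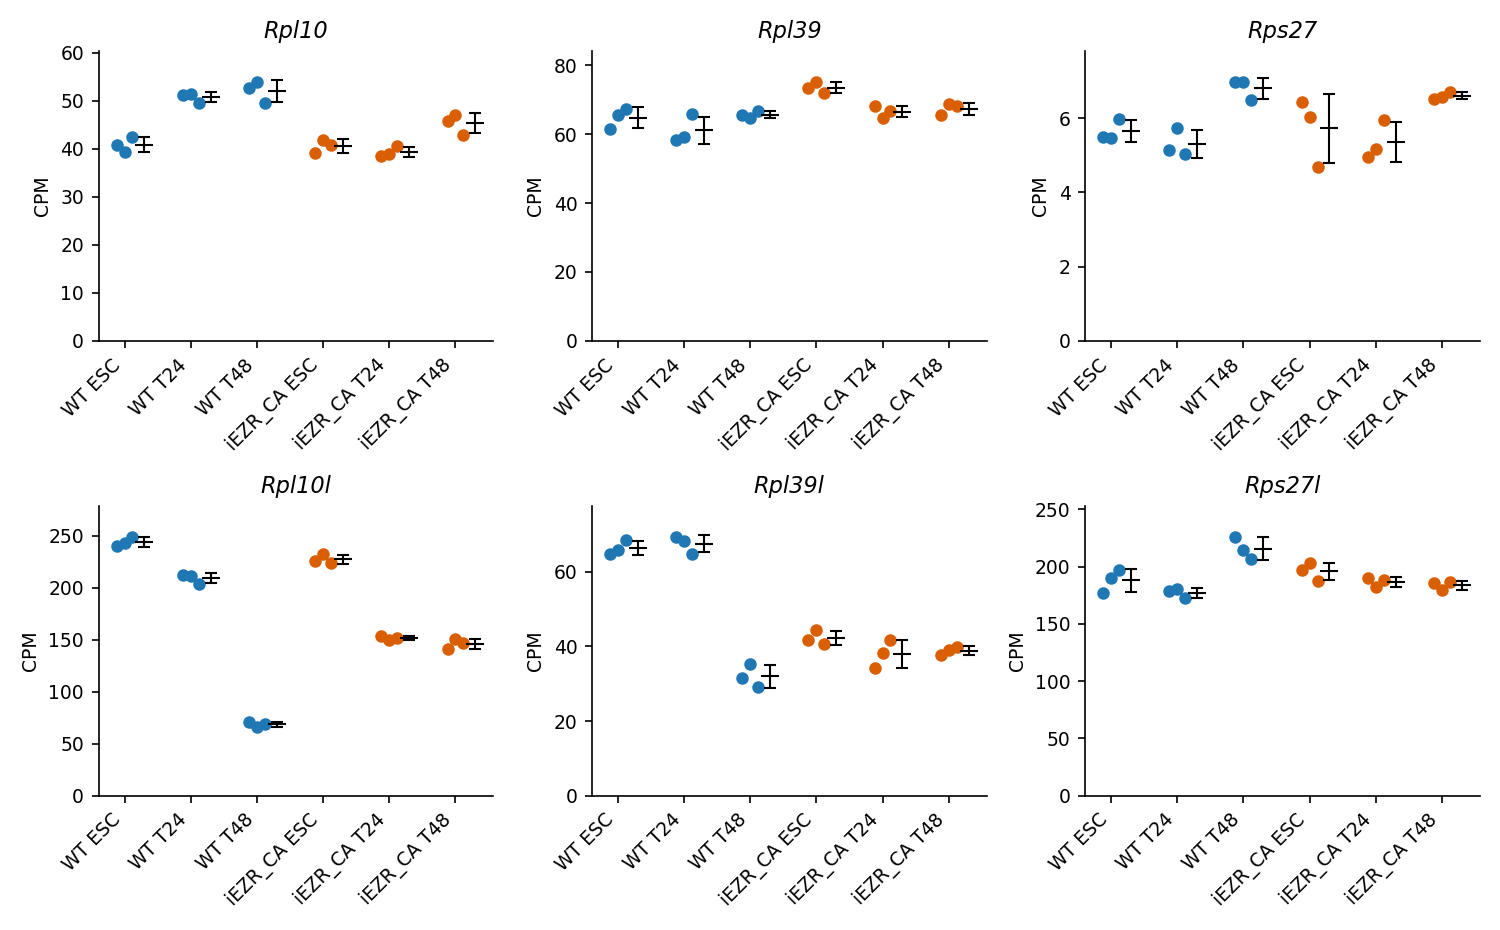
CPM of the paralogues Rpl10l, Rpl39l and Rps27l (bottom) and of Rpl10, Rpl39 and Rps27 (top) in the 6 groups. Points are libraries, with WT in blue and iEZR_CA in orange, and bars are the mean with its SD (n = 3). Rpl10l falls to 65.9 to 71.1 CPM in WT T48 and stays at 141 to 151 CPM in iEZR_CA T48.

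In the comparison of the lines the members had no common direction. In ESCs 26 were higher and 12 lower in iEZR_CA than in WT (background 26.4% and 28.1%), with a median of 0.04. At T24 15 were higher and 21 lower (30.8% and 30.1%), with a median of -0.01, and at T48 14 were higher and 23 lower (31% and 30.1%), with a median of -0.04. The 26 of 77 in ESCs are above the background as counted on the parent genes alone. With the reads of named pseudogenes added, 21 of the 26 kept the call, and 10 of the 12 lower ones. Only 58 of the 77 members have pseudogenes named for them, so for the others no reads were added and the call could hardly change. Members with all coding windows shared with other genes gave 14 of the higher calls and 1 of the lower. Those with few shared windows gave 0 and 7, and those in between 12 and 4. Without WT ESC replicate 3 the ESC median was 0.09. Scaled to spike-in reads 8 members were higher and 1 lower in ESCs and 4 and 3 at T24, where the median turned to 0.06. The T48 median turned to 0.01, with 6 members higher and none lower (none lower at an unadjusted p under 0.05 either). Of all genes on the spike-in scale 16.64% were higher and 13.17% lower in ESCs. The shares were 23.58% and 15.02% at T24, and 21.81% and 17.33% at T48.

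Of the 77 members 5 were higher in iEZR_CA at all 3 stages and 5 lower (6.49% each), against 12.2% and 11.1% of all genes tested. The higher ones were Rpl13a, Rpl15, Rpl27a, Rpl41 and Rps15a, and the lower ones included Rpl4, Rpl28 and Rps3. Rpl15, of the large subunit, was counted at 114, 116 and 116 CPM in WT ESCs and 144, 146 and 148 CPM in iEZR_CA ESCs. At T24 the values were 117, 120 and 116 against 156, 154 and 152 CPM, and at T48 115, 111 and 110 against 152, 158 and 157 CPM. The lines did not overlap at any stage, and the differences were 0.34 ± 0.03, 0.39 ± 0.03 and 0.48 ± 0.03 (adjusted p = 7.99e-22 at T48). The other tested genes of chromosome 14, on which Rpl15 lies, had medians of -0.30, -0.36 and -0.26 in these comparisons.

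Rpl13a, known for an extra-ribosomal role in silencing inflammatory mRNAs, went the same way, from 33.2, 33.1 and 35.5 CPM in WT to 43.4, 45.8 and 41.0 CPM in iEZR_CA ESCs (0.36 ± 0.05). At T48 it was 37.4, 38.5 and 37.8 against 52.6, 54.1 and 50.8 CPM (0.48 ± 0.05). Rpl28 was lower, at 58.7, 53.7 and 54.1 CPM in WT T24 against 37.6, 37.2 and 41.6 CPM in iEZR_CA T24 (-0.52 ± 0.05, adjusted p = 8.73e-16). Neither gene overlapped between the lines in these groups. In ESCs the largest differences of single members were Rpl39l and Rps29, which had 23.8, 23.4 and 22.5 CPM in WT and 34.4, 34.5 and 32.2 CPM in iEZR_CA cells (0.54 ± 0.06). Rps6, the substrate of S6 kinase, was at 22.8, 23.3 and 23.9 against 32.3, 32.4 and 29.4 CPM (0.43 ± 0.06), again without overlap.

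A test of whether the step itself differed between the lines called 18 members lower and 1 higher over the first 24 h (background 16.9% lower and 21.5% higher) and 14 lower and 12 higher over the next (20.9% and 25.3%). Without a filter on low counts the calls were 11 and 16 in place of 19 and 26. The single member whose first step was higher in iEZR_CA cells was Rps20 (0.16 ± 0.04). The lower ones included Rpl10 (-0.36 ± 0.07), Rpl9 (-0.34 ± 0.09), Rpl27 (-0.34 ± 0.06) and Rps29 (-0.33 ± 0.09). For the second step, beside the paralogues, Rpl30 (0.34 ± 0.12) and Rpl34 (0.29 ± 0.08) were higher, and Rps29 (-0.37 ± 0.09) and Rpl38 (-0.36 ± 0.07) lower. With pseudogene reads added 11 of the 18 lower first steps kept the call, Rpl9 (-0.07) not among them, and 8 of the 12 higher second steps, Rpl30 (0.22) and Rpl34 (0.04) not among them. Scaled to spike-in reads no member was called over the first 24 h by edgeR (1 lower at an unadjusted p under 0.05, where on the TMM scale 23 were lower by edgeR and 23 by DESeq2), and 2 were called over the next. Of all genes on the spike-in scale 8.966% were higher and 4.115% lower over the first 24 h, and 10.34% and 10.03% over the next.

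Counted levels were lower where more of the coding sequence was shared with other genes. A median of 91.3% of the 50-base windows in the coding sequence of a member occurred in the transcripts of at least 1 other annotated gene. The 13 members with under 50% of windows shared had a median level of 373 RPKM (57.2 to 1479) and held 51.6% of all member reads. The 37 members with 50% to under 100% had 61.6 RPKM, and the 27 with all windows shared 23.4 RPKM (5.66 to 200) and 7.75% of the reads. The highest members per length were Rpl8 (1479 RPKM, 8.73% of windows shared), Rpl4 (1295 RPKM, 20.3%) and Rplp1 (1098 RPKM, 60.4%), and the lowest Rpl30 (3.69 RPKM), Rpl35 (5.41 RPKM) and Rps27 (5.66 RPKM). How much of this spread is loss of reads to copies was not tested. Of the exon bases of Rpl35, 66.2% overlap another annotated gene. Rpl23a and Rpl24, under the limit of 5 CPM, had all windows shared.

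**Figure D5:**
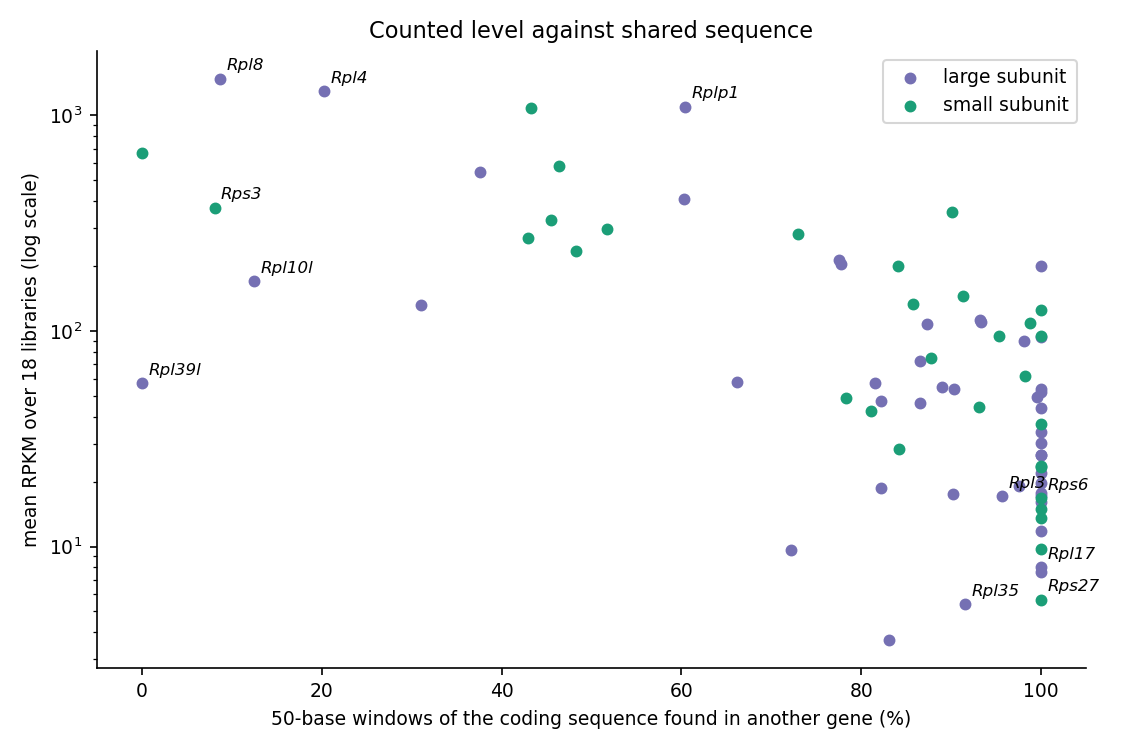
Mean level of each of the 77 genes over the 18 libraries (RPKM, log axis) against the percent of 50-base windows of its coding sequence found in another gene. Points are genes, coloured by subunit. Members with all windows shared lie between 5.66 and 200 RPKM, and those with under 50% between 57.2 and 1479 RPKM.

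Reads did reach the copies. Rows named as pseudogenes of a gene of this form, member or not, numbered 296, and 280 of them had counts. Such rows existed for 58 members. Pseudogenes under other names were not among them: Rpl11 shared its coding windows with 9 annotated pseudogenes and had no such row. Together the 296 rows held 24.5% to 25.3% of the reads of members plus these rows in each library. For 22 members the copies were counted above the parent. Among these, Rpl3, a protein near the peptidyl transferase centre, had 93.1% of the joint reads on its 2 named copies, Rpl36a 91.7%, Rpl9 89.4% and Rps6 89.2%. The row of Rpl3 therefore holds a small part of these reads, and its CPM of 54.7, 50.8 and 56.4 in WT ESCs and 56.9, 57.7 and 56.6 at T24 did not pass the test (0.08 ± 0.05, adjusted p = 0.102). In iEZR_CA cells it fell from 57.3, 59.6 and 60.8 to 46.8, 49.8 and 55.0 CPM (-0.22 ± 0.05).

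Split by shared windows, most called members were lower at T24 in each of the 3 classes on the TMM scale. At T24 in WT the counts of higher and lower members were 0 and 8 of 13 in the class with few shared windows, 1 and 25 of 37 in the middle class and 4 and 6 of 27 in the class with all shared. In iEZR_CA cells they were 0 and 10, 0 and 27, and 1 and 17. Over all genes 31.8% were higher and 33.6% lower in WT, and 27.1% and 28.9% in iEZR_CA cells. The WT class with all shared, with 4 and 6 of 27, lay under both shares. With pseudogene reads added Rps12, of this class, lost its higher call, and Rpl9, also of this class, turned to -0.12. In ESCs, however, the lines differed with 0 higher and 7 lower in the class with few shared windows, with a median of -0.08, and with 14 higher and 1 lower where all were shared, with a median of 0.14. Of the 18 members with a lower first step in iEZR_CA cells, 12 belonged to the class with all windows shared. The difference between the classes was not tested. The share of low-quality alignments given above differs between the same lines, and its part was not tested.

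Related genes were read from the same fit, from lists drawn up with earlier results in view. Of 19 other genes of translation with TOP mRNAs, 9 were lower and 3 higher at T24 in WT and 13 lower and 1 higher in iEZR_CA cells, and 12 and 15 were higher at T48, where the lowest values were -0.03 and -0.10. Over all genes 33.6% were lower and 31.8% higher at T24 in WT and 28.9% and 27.1% in iEZR_CA cells, and 32.8% and 29.6% were higher at T48. Pabpc1, the poly(A)-binding protein, had the largest fall at T24 (-0.36 ± 0.02 in each line), and Tpt1 was lower in iEZR_CA than in WT by 0.97 to 1.08 on the log2 scale at the 3 stages. Of 6 tested ribosomal proteins or paralogues outside the rule, 2 were lower and 1 higher at T24 in WT. Rack1 of the 40S head was lower at T24 in both lines (-0.23 ± 0.02 and -0.22 ± 0.02). Fau, which encodes a ribosomal protein fused to a ubiquitin-like protein, had -0.05 ± 0.05 at T24 in WT.

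Genes that build ribosomes were mostly higher at T24 in WT cells. Of 28 assembly factors, 21 were higher and 4 lower at T24 in WT, with a median of 0.16 (31.8% and 33.6% of all genes), and 9 were higher and 9 lower in iEZR_CA cells (-0.02; 27.1% and 28.9%). In WT 15 rose and 6 fell from T24 to T48 (0.10), and 25 rose and 2 fell in iEZR_CA cells (0.31), where 32.8% and 29.6% of all genes rose. Between the lines at T24, 26 of the 28 were lower in iEZR_CA (30.1% of all genes), with a median of -0.35, a highest value of 0.01 and the lowest values for Nolc1 (-0.74 ± 0.03) and Heatr1 (-0.66 ± 0.03). The first step differed between the lines in 19 that were lower and 2 that were higher (16.9% and 21.5%). Of 10 genes of RNA polymerase I, which transcribes ribosomal RNA, 8 were lower and 2 higher in iEZR_CA at T24, among them its initiation factor Rrn3 (-0.75 ± 0.03).

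Among 11 regulators of ribosome supply, Myc had the largest change, from a mean of 7.42 ± 1.57 CPM in WT ESCs to 105 ± 0.957 at T24, and from 3.44 ± 0.599 to 33.2 ± 0.961 CPM in iEZR_CA cells (SD, n = 3). Mycn rose in WT from 164 ± 2.25 to 302 ± 9.39 CPM, whereas iEZR_CA cells had 130 ± 3.58 and 126 ± 6.53 CPM. The lines differed at T24 by -1.67 ± 0.05 for Myc and -1.27 ± 0.03 for Mycn. In the same comparison the ribosomal protein genes had a median of -0.01.

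The 77 tested genes of the mitochondrial ribosome, which is encoded by a separate set of nuclear genes, had called members in both directions. At T24 27 were lower and 21 higher in WT and 33 lower and 8 higher in iEZR_CA cells, and at T48 36 were higher and 18 lower in WT and 26 higher and 15 lower in iEZR_CA cells. Over all genes the shares at T24 were 33.6% lower and 31.8% higher in WT, close to those of this list, and 28.9% and 27.1% in iEZR_CA cells. At T48 they were 32.8% higher and 32.9% lower in WT and 29.6% and 30% in iEZR_CA cells. Their medians were -0.07, -0.09, 0.08 and 0.02. Mrpl57 differed by -0.62 ± 0.07, -0.88 ± 0.07 and -0.93 ± 0.07 between the lines at the 3 stages.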

How the data were processed

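Polyadenylated RNA of 18 samples was sequenced from paired ends on a NovaSeq. The authors trimmed reads with Trim Galore 0.6.5, aligned them with GSNAP (2015-09-29) to GRCm38 and used HTSeq with the genes of Ensembl release 81. They deposited whole read counts for 53801 genes and 92 spike-in sequences, without normalization and with replicates separate. The strand setting, the read length and the treatment of reads with several matches are not given in the sources used here. Of all reads 12.4% to 14.1% were not aligned, 4.51% to 4.76% ambiguous and 0.0761% to 0.169% not unique.

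Groups were taken from the labels. Symbols and lengths came from GENCODE M21 (53706 identifiers matched, 95 did not). Counts were fitted with edgeR 4.0.16 (R 4.3.3, limma 3.58.1): filterByExpr, TMM factors, 1 term per group over 18 libraries (12 residual degrees of freedom), the robust quasi-likelihood test in 9 contrasts and Benjamini-Hochberg adjustment over 18469 genes with a threshold of 0.05. Standard errors were derived from the fold change and its F statistic. The fit was tested on simulated data. CPM used TMM-scaled gene reads, and heatmap levels added 0.5 CPM. The lowest member count in a library was 67. A window of 50 bases was shared if it occurred in a transcript of another gene, on either strand. Promoters were from RefSeq. Genes named were Rpl3, Rps2, Rplp0, the passing paralogues, the 3 largest called rises and falls of each contrast, called members against the majority by over 0.25 and the 3 highest and lowest by RPKM. Rpl41, Rps3 and further members named as examples were chosen after their values were seen. A few genes are counted in the totals and not reported here one by one. Members and lists were chosen with earlier results of these data known. Alternatives were DESeq2 1.42.0, RLE factors, other filters, spike-in scaling, scaling without the members, separate fits, pseudogene reads added and leaving out each library.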

Additional observations from a re-analysis of the deposited data

Results flagged for a closer look

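The step over time differed between the lines by edgeR's quasi-likelihood test for the following named members, given as the log2 step of iEZR_CA cells minus that of WT cells. Over the first 24 h the values were -0.36 for Rpl10, -0.37 for Rpl10l, -0.34 for Rpl27, -0.32 for Rpl28, -0.31 for Rpl3, -0.30 for Rpl34, -0.18 for Rpl39l (adjusted p = 0.0485) and -0.34 for Rpl9. In the small subunit they were -0.25 for Rps12, -0.23 for Rps13, -0.33 for Rps29, -0.29 for Rps6 and, as the single positive one, 0.16 for Rps20. With the reads of named pseudogenes added the call was lost for Rpl28 (-0.11), Rpl3 (0.01), Rpl34 (-0.08), Rpl9 (-0.07) and Rps12 (-0.10).

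From 24 h to 48 h the step was higher in iEZR_CA cells for Rpl10 (0.18), Rpl10l (1.55), Rpl27a (0.25), Rpl28 (0.25), Rpl3 (0.28), Rpl30 (0.34), Rpl34 (0.29), Rpl39l (1.13) and Rps12 (0.26). It was lower for Rpl13 (-0.18), Rpl38 (-0.36), Rpl4 (-0.0761), Rplp0 (-0.17), Rplp1 (-0.10), Rps13 (-0.24), Rps2 (-0.17), Rps27l (-0.30) and Rps29 (-0.37). With pseudogene reads added Rpl3 turned to -0.13, and the call was lost for Rpl30 (0.22), Rpl34 (0.04), Rps12 (0.12) and Rps13 (0.00).

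Outside the gene counts, reads rejected for low alignment quality made up at least 0.889% of every iEZR_CA library and at most 0.612% of every WT library. Whether they bear on the differences between the lines was not tested.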

How the results depend on the processing

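No paired analysis was possible because the labels carry no replicate numbers, and those used here only name libraries. For the comparisons of WT T24 with ESC, WT T48 with T24, iEZR_CA T24 with ESC, iEZR_CA T48 with T24, the lines in ESC, T24 and T48, and the 2 interactions, in this order, the counts of members called with a size over 0.25 as well were 5, 17, 11, 9, 10, 10, 8, 10 and 10, and after spike-in scaling 4, 37, 2, 15, 9, 7, 6, 0 and 2. The cause was not tested. Over the size of 0.25, of 18469 genes, 4576 were higher and 4878 lower, then 4751 and 4915, 3812 and 3685, and 3918 and 4225. For the lines the counts were 3452 and 3708, 4473 and 4139, and 4404 and 4233. In the interactions they were 3250 and 2093, and 3681 and 3204. The shares of all genes on the spike-in scale are given with each result above. Spike-in scaling gave medians of 0.0495, 0.285, 0.00349, 0.227, 0.0903, 0.065 and 0.0124 in the first 7, with reversed sign for T24 with ESC in both lines and for the lines at T24 and T48. The log2 ratio of the share of reads in these 7 comparisons was -0.13, 0.17, -0.08, 0.10, -0.02, 0.03 and -0.04, and with spike-in reads as the denominator 0.023, 0.249, 0.0171, 0.221, 0.0401, 0.0342 and 0.00625. Without a filter on low counts 11 and 16 members were called in the interactions, against 19 and 26.

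Leaving out 1 library at a time, the counts called ranged over 41 to 47, 54 to 62, 48 to 57, 40 to 48, 30 to 41, 32 to 41, 31 to 43, 15 to 26 and 21 to 29. The medians ranged from -0.107 to -0.055 for WT T24 with ESC, the upper end without WT ESC replicate 3, and from 0.0175 to 0.0876 for the lines in ESC, the upper end without the same library. The ratio of shares ranged from -0.157 to -0.0883 and from -0.0487 to 0.0198 in these 2 comparisons. With pseudogene reads added, Rpl3 in the second interaction turned to -0.13 and Rpl9 in WT T24 against ESC to -0.12. Pairs of a value and a setting were counted only for contrasts in which a gene was among the largest changes or against the majority. Of these, 1363 pairs kept direction and threshold, 39 lost the threshold and 2, the turns just given, reversed. Outside these pairs, Rpl3 in WT T48 against T24 (0.19) and between the lines at T48 (-0.15) also turned with pseudogene reads added. So did Rpl18 between the lines in ESCs (-0.12) and at T24 (-0.12). Depth limits the members near 5 CPM most, with standard errors up to 0.17 for Rps27 against 0.02 for Rpl4.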
